A study of Mus musculus with 18 samples.

Results

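Heterotrimeric G proteins and regulators of G protein signaling (RGS proteins) were followed through 44 genes, taken from the 27179 genes of the deposited count table by their symbols: 12 G alpha, 5 G beta, 11 G gamma and 16 RGS genes. All 44 were found, and 42 had enough counts to be tested. The samples were half-brains of 18 wild-type C57BL/6J mice, 10 males and 8 females, which from the age of 4 months received vehicle or chemically pure glyphosate, the active compound of many herbicides, by gavage on 14 days. Vehicle was given to 2 males and 3 females, 125 mg/kg to 3 males and 2 females, 250 mg/kg to 3 males and 1 female, and 500 mg/kg to 2 males and 2 females. The vehicle was the same sodium hydroxide solution brought to neutral pH, without glyphosate. The labels list no transgene or mutation in any group. The comparison asks whether transcripts of this signaling machinery changed with the dose.

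A heterotrimeric G protein couples a membrane receptor to enzymes and channels inside the cell. Receptor activation loads the alpha subunit with GTP and frees it from the beta-gamma pair, and both then act on targets such as adenylyl cyclase, phospholipase C and inwardly rectifying potassium channels. RGS proteins speed the hydrolysis of GTP and so end the signal, and in the brain they set how long responses to dopamine, opioids, acetylcholine and glutamate last.

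By edgeR, no G protein or RGS gene was called on dose, in any group against vehicle, or for a difference between the sexes. With edgeR's quasi-likelihood test and Benjamini-Hochberg adjustment over 15863 genes, 0 of the 42 tested members passed an adjusted p of 0.05 on dose, where 0.29% of all genes did. At an unadjusted p under 0.05, 4 members had positive slopes (Gna12, Gna13, Gna14 and Rgs17), against a background of 7.91% of genes, and 5 had negative slopes (Gng10, Gng13, Rgs4, Rgs7 and Rgs20), against 5.28%. The smallest adjusted p belonged to Gng10 (0.0764), and DESeq2 called that gene alone (adjusted p = 0.0147, where 1.77% of all genes with an adjusted p passed that test) while limma-voom called 0 members (0.315% of all genes). Their unadjusted counts were 9 (13.7% of all genes) and 7 (12.7%). Without mouse G9 of the vehicle group the unadjusted count was 16 (17.3% of all genes). Without mouse G4 of the 500 mg/kg group it was 6 (8.23% of all genes), with 1 positive slope left (Gna14). It was also 6 without vehicle mouse G1 (12.8% of all genes) or G15 (10.4%). When the fit held the tag number of the mice beside sex it was 0, where 2.33% of all genes were under 0.05. All 250 mg/kg mice carry 1 tag number. The only tag numbers found in more than 1 group hold vehicle females and dosed males. That fit therefore separates dose poorly from tag and sex, and its count cannot show whether the slopes hold.

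Slopes are log2 changes per 500 mg/kg from a fit with sex as a covariate. The 42 members had 12 positive and 30 negative slopes with a median of -0.16, whereas the median of all tested genes was 0.01 and 51.2% of them were positive. By class the median slope was -0.09 for the 12 G alpha genes, -0.36 for the 4 tested G beta genes, -0.07 for the 10 tested G gamma genes and -0.21 for the 16 RGS genes. All 4 tested G beta genes and 13 of the 16 RGS genes had negative slopes, and 16 of the 42 slopes were under 0.2 in size. These are descriptions of the members and not tests of them as a group.

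**Figure D1:**
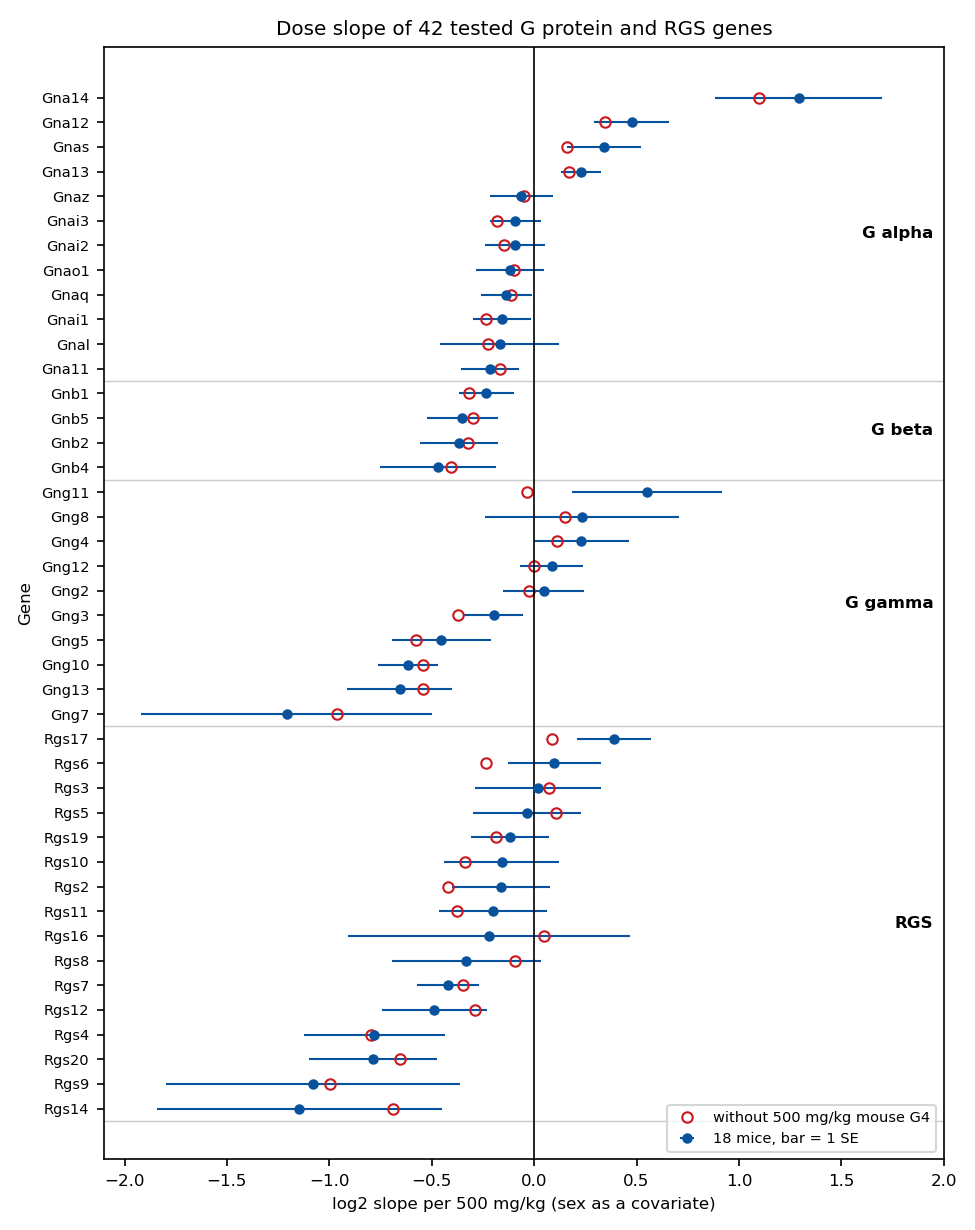
Dose slope of each of the 42 tested genes on the log2 scale per 500 mg/kg, by class, with 1 standard error (filled points, 18 mice) and without mouse G4 (open points). Slopes ran from -1.21 for Gng7 to 1.29 for Gna14, and 5 genes (Gng2, Gng11, Rgs5, Rgs6 and Rgs16) changed sign without that mouse.

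Total counts per mouse ran from 3948096 to 11732885, with a median of 7789800. The libraries of mouse G4 (500 mg/kg) and mouse G9 (vehicle) stood apart, with a median correlation to other mice of 0.943 and 0.942, where the rest had 0.959 to 0.975. Markers of brain cells were present in every library, with a summed level of 8030 to 11200 CPM (counts scaled to the normalized library size) for 10 astrocyte genes. The 10 markers of cortical and hippocampal excitatory neurons summed to 563 CPM in G4 and 558 CPM in G9, and to at least 1780 CPM in the other mice. In half-brain RNA, fewer cells of a type and less RNA per cell cannot be told apart. The labels name separate mice and no litters, and mouse G4 was used as labelled although its number falls among those of the vehicle mice.

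Per length of annotated exons, the most abundant transcripts were Gnb1 with 143 ± 20.0 CPM per kb (mean and SD over 18 mice) and Rgs4 with 103 ± 45.3 CPM per kb. Gnas (74.3 ± 16.7), Gnai1 (68.5 ± 9.73), Gng3 (66.3 ± 10.2) and Gnb2 (64.7 ± 14.6 CPM per kb) came after them. In 40 of 43 pairs of neighbours in this order the gap was smaller than the larger of the 2 SDs. Gnb1 made up 60.5% ± 3.56 of the G beta level per length and Gnb2 27.1% ± 2.49, and both shares kept within 53.5 to 66.3% and 22.9 to 32.3% over the mice. Per length no single gene led the G alpha class, where Gnas held 17.3% ± 3.41 and Gnai1 16% ± 1.65. These shares depend on the length used, which joins the exons of all annotated transcripts of a gene. It was 11186 bp for Gnas, 11053 bp for Gnao1 and 3135 bp for Gnai1. In CPM, without the length, Gnas (831), and Gnao1 (590) after it, lay above Gnai1 (215). Summed per length, the G alpha genes averaged 410 ± 25.9 CPM per kb in the vehicle mice, 470 ± 21.6 in the 125 mg/kg mice, 396 ± 22.3 in the 250 mg/kg mice and 434 ± 47.2 in the 500 mg/kg mice (SD, n = 5, 5, 4 and 4). In the same order the G beta genes averaged 234 ± 29.6, 282 ± 23.0, 215 ± 9.73 and 209 ± 15.4 CPM per kb, the G gamma genes 292 ± 45.8, 307 ± 61.0, 269 ± 54.1 and 246 ± 27.2 CPM per kb, and the RGS genes 246 ± 62.7, 291 ± 48.9, 220 ± 21.5 and 200 ± 15.4 CPM per kb. The 125 mg/kg mice had the highest mean in all 4 classes.

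Among the G alpha genes, both genes of the 12/13 family had positive slopes. G alpha 12 and G alpha 13 signal to the actin cytoskeleton. Gna12 (chromosome 5, 140759944 to 140830431, GRCm38) had 69.5, 65.7, 77.8, 96.5 and 80.3 CPM in the vehicle mice, 98.7, 108, 88.7, 65.2 and 117 CPM at 125 mg/kg, 74.2, 81.8, 67.9 and 82.0 CPM at 250 mg/kg, and 141, 83.3, 134 and 97.0 CPM at 500 mg/kg. At 500 mg/kg 3 of 4 mice lay above all vehicle mice, yet the 250 mg/kg mice lay within the vehicle range. Its slope was 0.48 (SE 0.18, adjusted p = 0.27), with a log2 change of 0.57 (SE 0.17, adjusted p = 0.233) at 500 mg/kg against vehicle. Without mouse G4 the slope was 0.35 (SE 0.20). Gna12 was highest in mice G4 and G87, which also had the highest sums of 10 oligodendrocyte markers, 16300 and 10200 CPM. It was lowest in mouse G40, which had the lowest sum, 3950 CPM. The part of oligodendrocytes in the Gna12 values was not tested.

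Gna13 averaged 156 ± 14.2 CPM at 500 mg/kg and 131 ± 14.5 CPM in vehicle mice, with 176, 143, 150 and 156 CPM at 500 mg/kg and 112, 152, 132, 125 and 133 CPM in vehicle mice. At 125 and 250 mg/kg it ran over 144 to 154 and 137 to 156 CPM. The ranges at 500 mg/kg and vehicle overlapped through vehicle mouse G5, and the slope was 0.23 (SE 0.10, adjusted p = 0.324). Amz1, whose exons overlap 13.3% of the Gna12 exons on the opposite strand, had a slope of -0.37 (adjusted p = 0.689).

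Gna14, an alpha subunit of the Gq family that activates phospholipase C beta, was the scarcest tested member per length. It had 0.77, 1.05, 0.997, 0.40 and 0.43 CPM in vehicle mice, 0.92, 0.28, 0.32, 0.44 and 0.65 CPM at 125 mg/kg, 1.48, 0.72, 0.98 and 1.13 CPM at 250 mg/kg, and 2.19, 1.68, 0.92 and 1.53 CPM at 500 mg/kg. At 500 mg/kg 3 of 4 mice were above all vehicle mice, while the 125 mg/kg mice lay within the vehicle range or below it. The slope was 1.29 (SE 0.41, adjusted p = 0.183) and rested on 2 to 17 counts per mouse. The 10 markers of hypothalamic neurons, 8 of them tested and 0 called (0.29% of all genes), summed to 3.57 to 7.31 CPM in vehicle mice, 2.42 to 46.4 CPM at 125 mg/kg, 3.70 to 88.3 CPM at 250 mg/kg and 8.41 to 105 CPM at 500 mg/kg. All 8 had positive slopes, 7 of them at an unadjusted edgeR p under 0.05 (7.91% of all genes). The 10 markers of midbrain dopamine neurons, of which 8 were tested and 3 called as rising (0.29% of all genes were called), summed to 62.7 to 227 CPM in vehicle mice, 73.9 to 139 CPM at 125 mg/kg, 117 to 162 CPM at 250 mg/kg and 153 to 466 CPM at 500 mg/kg. Of these 8, 7 had positive slopes, 6 of them at an unadjusted edgeR p under 0.05, and 1 (Nr4a2) had a negative slope. Of the dopamine markers Slc6a3, Pitx3, Foxa1 and En1 were at 0 in 4, 5, 6 and 1 mice, and 7 of the hypothalamic markers were at 0 in 2 to 11 mice. The part of these cells in the Gna14 slope was not tested.

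Gnas encodes G alpha s, which stimulates adenylyl cyclase, and its count pools all transcripts of an imprinted locus. It had 1325, 780, 1026 and 836 CPM at 500 mg/kg and 488, 702, 983, 793 and 841 CPM in vehicle mice, so that 2 of 4 dosed mice exceeded all vehicle mice. At 125 and 250 mg/kg it ran over 721.5 to 1090 and 655 to 771 CPM. The log2 change at 500 mg/kg was 0.40 (SE 0.19, adjusted p = 0.42) and the slope 0.34 (SE 0.18, adjusted p = 0.437), which was 0.16 without mouse G4. Transcripts annotated on the opposite strand cover 22% of its exons. The highest value came from mouse G4, whose 10 oligodendrocyte markers summed to 16300 CPM. That sum was 4030 to 7150 CPM in vehicle mice, 3950 to 9550 CPM at 125 mg/kg, 4510 to 7040 CPM at 250 mg/kg and 5850 to 16300 CPM at 500 mg/kg, with no marker at 0, and its part in the Gnas level was not tested.

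Slopes of the inhibitory alpha subunits were small. All 5 genes of the i/o family, which lower cyclic AMP or act through freed beta-gamma, had slopes of -0.16 to -0.06. Gnao1, the alpha subunit most typical of neurons, averaged 561 ± 85.8 CPM at 500 mg/kg and 579 ± 123 CPM in vehicle mice, with a slope of -0.12 (SE 0.17, adjusted p = 0.81). Gnai1, Gnai2, Gnai3 and Gnaz averaged 215, 123, 46.2 and 81.6 CPM over all mice, and at 125 mg/kg against vehicle Gnai1 and Gnaz had log2 changes of 0.27 (SE 0.12, adjusted p = 0.418) and 0.29 (SE 0.13, adjusted p = 0.415). The slopes of Gnaq and Gna11, which drive phospholipase C beta, were -0.14 and -0.22, and that of Gnal, the olfactory and striatal relative of Gnas, was -0.17.

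**Figure D2:**
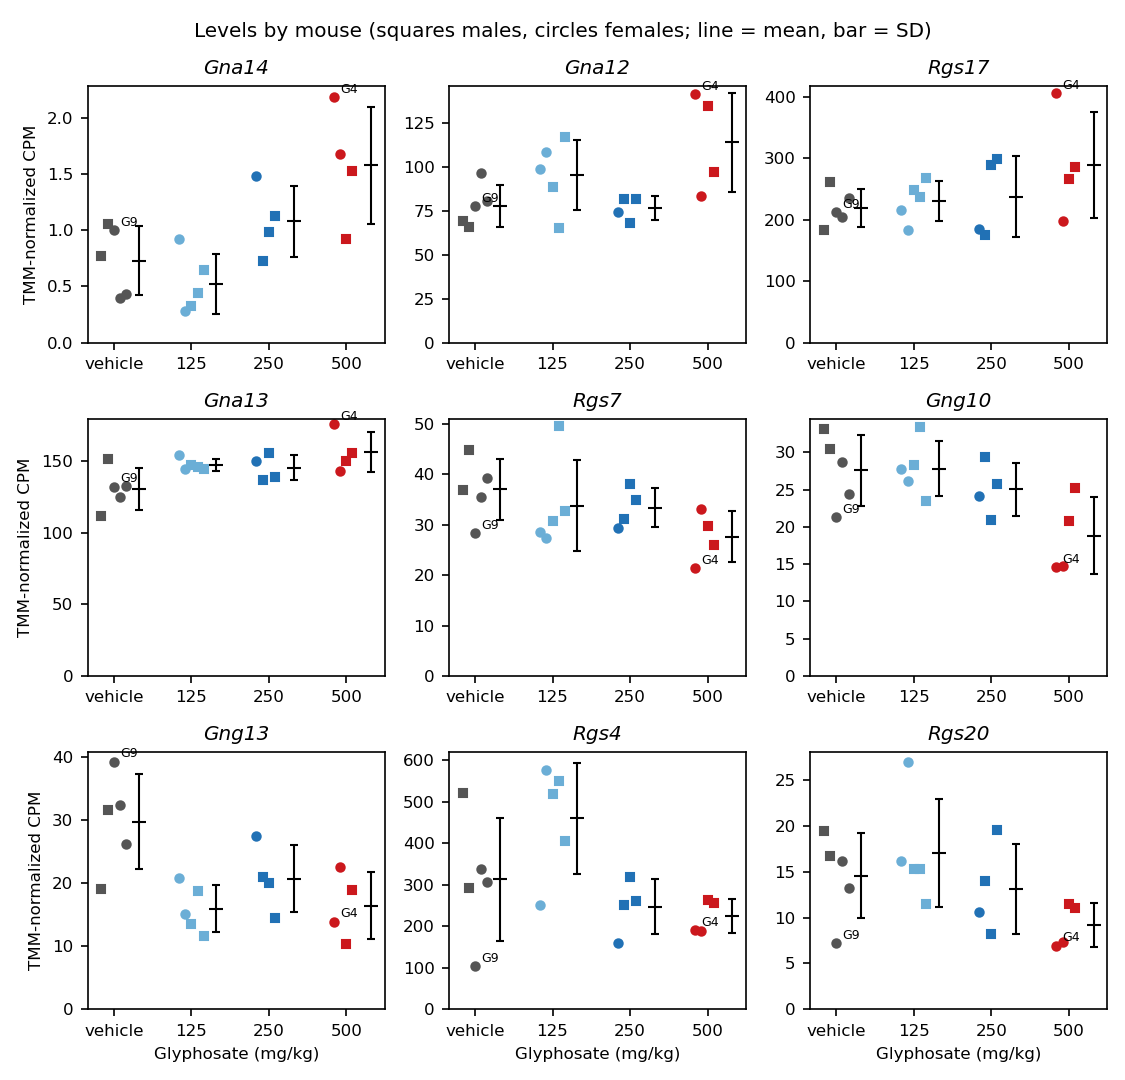
TMM-normalized CPM of the 9 genes at an unadjusted p under 0.05 on dose in each mouse, by dose (squares males, circles females), with the group mean and SD beside the points and mice G4 and G9 named. The 500 mg/kg and vehicle mice overlap in every panel.

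All 4 tested G beta genes had negative slopes, and Gnb1, Gnb2 and Gnb5 had their highest mean at 125 mg/kg. Gnb1 and Gnb2 encode the common beta subunits that pair with most gamma subunits. Gnb1 had 597, 651, 477, 670.1 and 607 CPM in vehicle mice, 685, 722, 722, 714 and 740 CPM at 125 mg/kg, 514, 539, 590.2 and 561 CPM at 250 mg/kg, and 615, 462, 571 and 565 CPM at 500 mg/kg. No vehicle mouse reached the lowest value at 125 mg/kg, whereas the 250 and 500 mg/kg mice overlapped with vehicle. The slope was -0.23 (SE 0.13, adjusted p = 0.473).

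Gnb2 had 238, 348, 288, 266 and 243 CPM at 125 mg/kg and 249.7, 181, 167, 268 and 198 CPM in vehicle mice. At 250 mg/kg it ran over 172 to 225 CPM. At 500 mg/kg it had 171, 181, 209 and 179 CPM, all within the vehicle range, and the slope was -0.37 (SE 0.19, adjusted p = 0.427). Gnb5, the beta subunit that pairs with RGS proteins of the R7 family, averaged 71.8 ± 4.92 CPM at 500 mg/kg and 88.9 ± 16.2 CPM in vehicle mice (slope -0.35, SE 0.17, adjusted p = 0.39), and 3 of 4 mice at 500 mg/kg were below all vehicle mice. Gnb4 had a mean of 22.7 CPM and a slope of -0.47 (SE 0.28). Gnb3, the beta subunit of cone photoreceptors, had 1 to 10 counts per mouse and was not tested.

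G gamma subunits anchor the beta-gamma pair to the membrane by a lipid on the cysteine of a carboxyl-terminal CaaX box, and the last residue of that box is known to decide which lipid is added. The ends of 5 coding sequences are shown for the gamma genes described next, as the last 30 bases before the stop codon in GENCODE M21 transcripts of GRCm38, 5′ to 3′, with the 12 bases of the CaaX box in capitals.
Gng10: ttccgggagcccaggtccTGTGCTCTACTT
Gng13: tgggtagagaaggccaagTGCACCATCCTA
Gng7: ttcaaagacaaaaagcctTGCATAATTCTC
Gng2: cgggagaagaagttcttcTGCGCCATCCTT
Gng11: ttcaaagaaaagggcagcTGTGTCATTTCA

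All 5 boxes open with a cysteine codon, and the last codon encodes leucine in Gng10, Gng13, Gng7 and Gng2 and serine in Gng11. Of the 11 gamma genes, Gng11 and Gngt2 ended in a serine codon and the other 9 in a leucine codon. A leucine there is known to direct a geranylgeranyl group and a serine a farnesyl group.

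Gng10, a widely expressed gamma subunit, had the smallest p of all members. It had 33.1, 30.5, 21.3, 28.7 and 24.4 CPM in vehicle mice, 27.8, 26.2, 28.3, 33.5 and 23.4 CPM at 125 mg/kg, 24.2, 29.4, 20.9 and 25.7 CPM at 250 mg/kg, and 14.7, 14.8, 20.8 and 25.2 CPM at 500 mg/kg. At 500 mg/kg 3 of 4 mice were below all vehicle mice, the other mouse (G90) was above vehicle mice G9 and G18, and the 2 lowest values came from both females. The slope was -0.62 (SE 0.15, adjusted p = 0.0764), and the log2 change at 500 mg/kg was -0.59 (SE 0.15, adjusted p = 0.161), with -0.03 at 125 and -0.23 at 250 mg/kg.

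The edgeR call on Gng10 depended on single mice: the adjusted p was 0.0423 without vehicle mouse G9 and 0.048 without mouse G45 of the 125 mg/kg group, and over 31 alternatives the slope stayed negative, from -0.79 to -0.26. Gng10 lies at 59035156 to 59041899 on chromosome 4 (GRCm38). In GENCODE M21, 72% of its exon bases are shared on the same strand with the gene model Gm20503, and whether the counting set such reads aside was not tested. Dnajc25, the gene before it, had 3.29 ± 0.90 CPM at 500 mg/kg and 3.31 ± 1.41 CPM in vehicle mice, with a slope of 0.00 (adjusted p = 0.997).

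Gng13, the gamma subunit of taste and retinal bipolar cells that is also found in Purkinje cells, had its highest mean in vehicle mice. It had 19.1, 31.6, 39.2, 32.4 and 26.1 CPM in vehicle mice, 20.7, 15.1, 13.5, 18.7 and 11.6 CPM at 125 mg/kg, 27.4, 20.9, 19.9 and 14.5 CPM at 250 mg/kg, and 13.9, 22.5, 10.4 and 18.9 CPM at 500 mg/kg. Vehicle mouse G1 was the one vehicle mouse within the range of the 500 mg/kg mice. The log2 change was -0.83 (SE 0.21, adjusted p = 0.307) at 125 mg/kg, -0.41 (SE 0.22) at 250 mg/kg and -0.82 (SE 0.22, adjusted p = 0.176) at 500 mg/kg, and the slope was -0.66 (SE 0.26, adjusted p = 0.282). DESeq2 called the change at 500 mg/kg (log2 change -0.82, adjusted p = 0.0499).

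The summed level of 5 Purkinje cell markers was 895 to 1590 CPM in vehicle mice, 300 to 734 CPM at 125 mg/kg, 389 to 1810 CPM at 250 mg/kg and 139 to 1120 CPM at 500 mg/kg, with Ppp1r17 at 0 in 1 mouse. Rgs8, an RGS protein of Purkinje cells, had 385, 580.4, 506, 350.3 and 382 CPM in vehicle mice, 353, 180.3, 269.9, 203 and 304 CPM at 125 mg/kg, 739.9, 183, 429.9 and 307 CPM at 250 mg/kg and 152, 492, 218 and 358 CPM at 500 mg/kg. The highest Rgs8 level (mouse G49) and the lowest (mouse G4) were in the mice with the highest and lowest Purkinje sums, 1810 and 139 CPM. Gng13 was instead highest in mouse G9 (39.2 CPM) and lowest in mouse G87 (10.4 CPM), with Purkinje sums of 1590 and 290 CPM. The part of these cells in the Gng13 and Rgs8 values was not tested. On the opposite strand Chtf18 overlaps 51.6% of the Gng13 exons, and it averaged 3.03 ± 0.70 CPM at 500 mg/kg and 3.21 ± 0.50 CPM in vehicle mice.

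Gng7, which pairs with the G alpha of Gnal in striatal neurons, had the most negative slope of all members and a 27.9-fold range over the mice. It had 616, 112, 26.6, 249 and 190.1 CPM in vehicle mice, 161, 742, 340, 153 and 109.5 CPM at 125 mg/kg, 169.9, 143, 76.1 and 363 CPM at 250 mg/kg and 64.1, 118, 199 and 95.8 CPM at 500 mg/kg. All 500 mg/kg mice lay within the vehicle range, and the slope of -1.21 had an SE of 0.71 (adjusted p = 0.481). Without vehicle mouse G1 it was -0.73. Mice G1 and G29, with the highest Gng7, also had the highest sums of 10 striatal projection neuron markers, 4440 and 4640 CPM. Rgs9, the RGS protein of striatal neurons and photoreceptors, was highest in these same mice, with 227 and 119 CPM against 12.1 to 98.9 CPM in the others, and Gnal likewise, with 501 and 489 CPM.

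Rgs9 was named after its values were seen, and its slope was -1.08 (SE 0.72, adjusted p = 0.541), and -0.15 without vehicle mouse G1. The striatal sum ran over 416 to 4440 CPM in vehicle mice, 377 to 4640 CPM at 125 mg/kg, 404 to 2160 CPM at 250 mg/kg and 382 to 1130 CPM at 500 mg/kg, with no marker at 0 in any mouse. Its part in the slopes of Gng7 and Rgs9 was not tested.

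**Figure D3:**
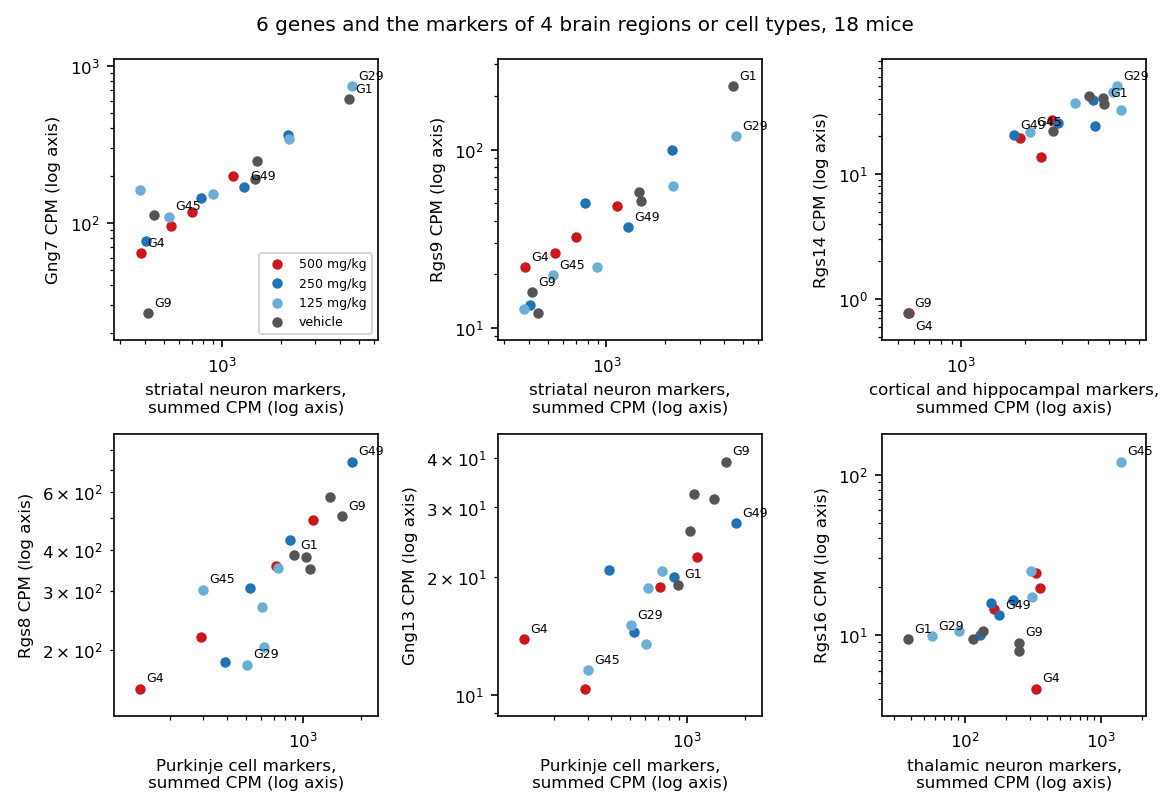
CPM of Gng7, Rgs9, Rgs14, Rgs8, Gng13 and Rgs16 against the summed CPM of markers of striatal, cortical and hippocampal, Purkinje or thalamic cells in 18 mice, both axes on a log scale and colored by dose. Mice G1 and G29 are highest for striatal markers with Gng7 and Rgs9, G4 and G9 lowest for cortical markers with Rgs14, and G45 highest for thalamic markers with Rgs16.

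The other gamma genes showed no common direction. Gng2, a main neuronal gamma subunit, had 259, 269, 249, 264 and 299 CPM at 125 mg/kg and 168, 232, 145, 229.9 and 199 CPM in vehicle mice. As with Gnb1, the 125 mg/kg mice all exceeded the vehicle mice, and these 2 of 42 members were the only ones to separate so, against 1.1% of all genes. At 500 mg/kg Gng2 had 233, 175, 244 and 247 CPM, and its slope was 0.05 (SE 0.20, adjusted p = 0.947). Gng3, Gng4, Gng12 and Gng11 averaged 109, 64.4, 104 and 12.8 CPM with slopes of -0.20, 0.23, 0.09 and 0.55, and the slope of Gng11 was -0.03 without mouse G4, which had 37.3 CPM against at most 22.3 CPM in the others. Gng5 (4.65 CPM, slope -0.45) and Gng8 (1.57 CPM, slope 0.24) were scarce, and Gng5 shares 5.94% of its 50-base stretches with pseudogenes and other gene models. Gngt2, a gamma subunit of cone photoreceptors, had 0 to 9 counts per mouse and was not tested.

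Among the RGS genes Rgs4 was the most abundant per length. It accelerates GTP hydrolysis on the i/o and q alpha subunits in forebrain neurons. Rgs4 had 522, 291, 105, 338 and 307 CPM in vehicle mice, 251, 578, 519, 549 and 406 CPM at 125 mg/kg, 159, 251, 318 and 259.9 CPM at 250 mg/kg, and 190.4, 189, 262 and 257 CPM at 500 mg/kg. Although 4 of 5 vehicle mice exceeded all mice at 500 mg/kg, the lowest value of all was that of vehicle mouse G9. The slope was -0.78 (SE 0.35, adjusted p = 0.344), and the log2 change was 0.49 at 125, -0.51 at 250 and -0.51 at 500 mg/kg.

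The 11 immediate early genes, which neuronal activity induces, had 11 negative slopes, 3 of them called (0.29% of all genes). They summed to 532 to 1870 CPM in vehicle mice, 560 to 2090 CPM at 125 mg/kg, 547 to 1480 CPM at 250 mg/kg and 267 to 955 CPM at 500 mg/kg, with none at 0. The 10 cortical and hippocampal excitatory markers summed to 558 to 4750 CPM in vehicle mice, 2130 to 5700 CPM at 125 mg/kg, 1780 to 4300 CPM at 250 mg/kg and 563 to 2700 CPM at 500 mg/kg, with Fezf2 at 0 in 1 mouse. With the level of these excitatory markers in the fit the Rgs4 slope was -0.33 (unadjusted p = 0.295). Of the 10 markers 9 had negative slopes themselves (median -1.04), so their level and dose cannot be told apart well there. In the same fit 7 members had an unadjusted p under 0.05 (10.5% of all genes). They were Gna12 (slope 0.43), Gna13 (0.22), Gna14 (1.04), Gng5 (-0.62), Gng10 (-0.49), Gng13 (-0.70) and Rgs7 (-0.34). The unadjusted p of Rgs4 was at or above 0.05 in 12 of 31 alternatives, among them that fit, limma-voom (0.0763) and the fit without sex (0.0579). Apart from the fit with excitatory markers, the part of either list in the Rgs4 values was not tested.

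Rgs7 of the R7 family, which works with G beta 5 on the i/o subunits, had 21.5, 33.2, 29.8 and 26.0 CPM at 500 mg/kg and 37.0, 44.9, 28.4, 35.4 and 39.4 CPM in vehicle mice. At 125 and 250 mg/kg it ran over 27.3 to 49.6 and 29.4 to 38.1 CPM. All vehicle mice but G9 exceeded all mice at 500 mg/kg, and the slope was -0.42 (SE 0.15, adjusted p = 0.243). The log2 change was -0.19 at 125, -0.24 at 250 and -0.44 at 500 mg/kg (adjusted p = 0.317 at 500 mg/kg). Of the other R7 genes, Rgs6 and Rgs11 averaged 20.9 and 14.0 CPM with slopes of 0.10 and -0.20.

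Rgs20 and Rgs17 belong to the RZ family, which acts on G alpha z and related subunits, and had slopes of opposite sign. Rgs20 had 6.94, 7.38, 11.4 and 11.1 CPM at 500 mg/kg and 19.4, 16.7, 7.2, 16.1 and 13.3 CPM in vehicle mice. At 125 and 250 mg/kg it ran over 11.4 to 27.0 and 8.24 to 19.6 CPM. Again 4 of 5 vehicle mice exceeded all mice at 500 mg/kg and G9 did not, and the slope was -0.79 (SE 0.31, adjusted p = 0.289). Rgs17 had 406, 198, 267 and 286 CPM at 500 mg/kg and 183, 262, 212, 204 and 236 CPM in vehicle mice. At 125 and 250 mg/kg it ran over 184 to 269 and 176 to 299 CPM. Its slope of 0.39 (SE 0.18, adjusted p = 0.365) was 0.09 without mouse G4, the mouse with the highest level. The other member of that family, Rgs19, averaged 14.0 CPM with a slope of -0.12.

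Rgs14, which is best known from hippocampal CA2 neurons, was named after its values were seen. It had 36.5, 40.3, 0.78, 42.2 and 22.1 CPM in vehicle mice, 32.2, 50.3, 36.6, 44.9 and 21.5 CPM at 125 mg/kg, 20.5, 38.9, 24.2 and 25.5 CPM at 250 mg/kg, and 0.77, 19.3, 26.8 and 13.6 CPM at 500 mg/kg. The values under 1 CPM were those of mice G4 and G9, the 2 mice with the lowest sums of cortical and hippocampal markers. The slope was -1.15 (SE 0.69, adjusted p = 0.497). It was -0.69 without G4, -1.40 without G9 and -0.94 without both mice. With the level of those markers in the fit it was 0.03. Since 9 of those 10 markers also had negative slopes, their level and dose cannot be told apart well in that fit. Apart from it, the part of these cells in the Rgs14 values was not tested.

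Rgs16, an RGS protein of thalamic neurons, was the member with the largest log2 change at 125 mg/kg, 1.59 (SE 0.56, adjusted p = 0.346). It had 17.4, 9.85, 25.2, 10.7 and 120.3 CPM at 125 mg/kg and 9.40, 9.47, 8.98, 10.6 and 7.99 CPM in vehicle mice. At 250 and 500 mg/kg it ran over 9.96 to 16.6 and 4.63 to 24.3 CPM, and the dose slope was -0.22 (0.48 without mouse G45). The high value was that of mouse G45, whose 6 thalamic markers summed to 1400 CPM against 38.2 to 359 CPM in the other 17 mice. By group that sum was 38.2 to 253 CPM in vehicle mice, 57.9 to 1400 CPM at 125 mg/kg, 130 to 227 CPM at 250 mg/kg and 165 to 359 CPM at 500 mg/kg, with Gbx2 at 0 in 1 mouse, and its part in the Rgs16 value was not tested. Rgs3 was highest in the same mouse, at 110.2 CPM against 27.7 to 57.4 CPM. The remaining RGS genes, Rgs2, Rgs5, Rgs10 and Rgs12, averaged 55.3, 9.04, 6.15 and 41.0 CPM, with slopes of -0.16, -0.03, -0.16 and -0.49.

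Each dose was also compared with vehicle. At 500 mg/kg, 0 of 42 members passed the adjusted threshold (0.0189% of all genes did), and 8 had an unadjusted p under 0.05 (11.6% of all genes), Gnas, Gna12, Gna13 and Gna14 higher and Gng10, Gng13, Rgs7 and Rgs20 lower. In no member did all mice at 500 mg/kg lie above all vehicle mice (2.32% of all genes) or below them (0.933%). At 250 mg/kg, 0 members passed (0% of genes), and Gng5 alone had an unadjusted p under 0.05 (3.76%). DESeq2 called 1 member at 500 mg/kg, Gng13 (1.05% of all genes passed), and limma-voom 0 (0.0189%), and neither called any at 250 mg/kg. When each mouse was left out, the unadjusted count at 500 mg/kg ran over 4 to 11. It was 4 without mouse G4 (6.54% of all genes), 5 without vehicle mouse G1 (9.87%), 10 without mouse G79 (15.4%) and 11 without vehicle mouse G9 (14.5%).

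At 125 mg/kg, 0 members passed (0% of genes), as with DESeq2 (0.233% of all genes) and limma-voom (0.0063%). Unadjusted, 7 members were higher (Gnai1, Gnaz, Gna11, Gnb1, Gnb2, Gng2 and Rgs16), against 4.66% of all genes, and 2 lower (Gng13 and Rgs8), against 6.51%. Of the 42 members 29 had a positive log2 change at this dose, 69% against 49.8% of all genes, with a median of 0.21. At 250 and 500 mg/kg 13 and 14 members were positive. Without vehicle mouse G9, 31 members were positive at 125 mg/kg, and the median was 0.09. In that fit 2 members (Gng13 and Rgs16) had an unadjusted p under 0.05 (8.77% of all genes). Without mouse G29 of the 125 mg/kg group the count was 3 (7.76%). The 3 comparisons share the vehicle mice.

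**Figure D4:**
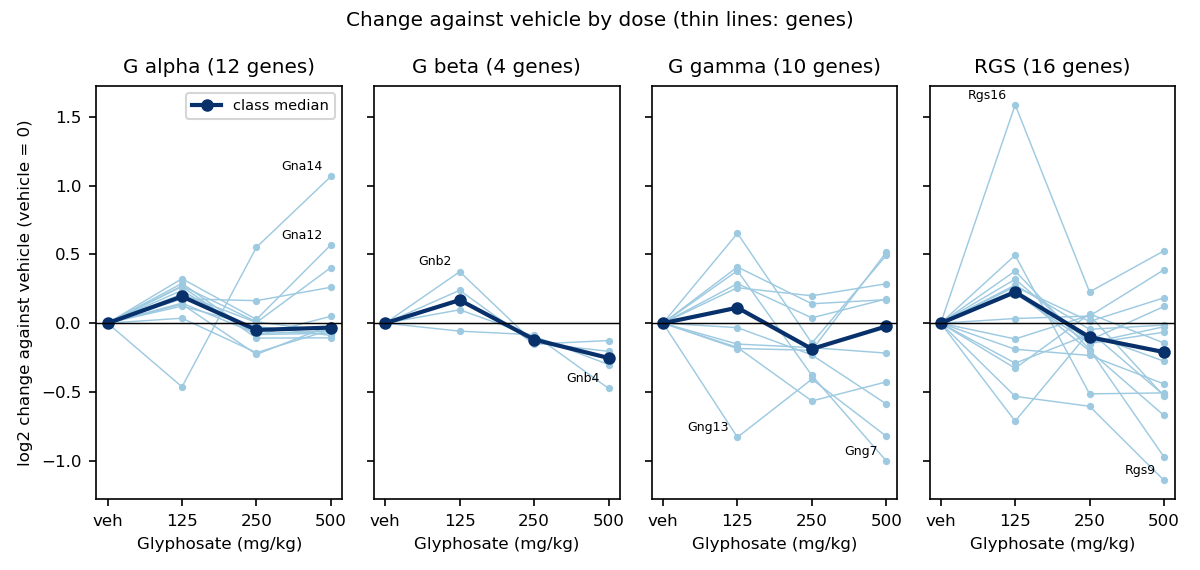
Log2 change against vehicle (set to 0) of each tested gene at 125, 250 and 500 mg/kg, by class (thin lines), with the class median (thick line). The class medians at 125 mg/kg were 0.19 for G alpha, 0.17 for G beta, 0.11 for G gamma and 0.23 for RGS genes, and at 500 mg/kg they were -0.03, -0.25, -0.02 and -0.21.

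For any difference among the 4 groups, edgeR called 0 members (0.0441% of all genes) and 9 had an unadjusted p under 0.05 (15% of all genes): Gng13, Gnb2, Gng10, Rgs4, Gnb1, Gna14, Gna11, Gna12 and Rgs16. DESeq2 called 4 of these, Gnb1 (adjusted p = 0.013), Gng13 (0.0206), Gnb2 (0.0269) and Rgs4 (0.0287), where 3.4% of all genes with an adjusted p passed that test, and limma-voom called 0 (0.0378%). The difference in slope between males and females passed in 0 members (0% of all genes), and 0 had an unadjusted p under 0.05 (1.65% of all genes), also with DESeq2 and limma-voom. Rgs2 came closest, with a male minus female difference in slope of -0.73 on the log2 scale.

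Effectors of these G proteins were not called either. Of 40 genes for adenylyl cyclases, phospholipases C beta, potassium channels, receptor kinases, arrestins, protein kinase A subunits and other modulators, 39 were tested. Of these, 0 passed on dose (0.29% of all genes). At an unadjusted p under 0.05, 2 had positive slopes (7.91% of all genes) and 5 had negative slopes (5.28%). The median slope was -0.01. Prkar2a, a regulatory subunit of protein kinase A, averaged 93.0 ± 10.7 CPM at 500 mg/kg and 67.6 ± 7.78 CPM in vehicle mice (slope 0.39, SE 0.12, adjusted p = 0.175). Kcnj9, a subunit of the potassium channels opened by beta-gamma, averaged 77.9 ± 24.9 CPM at 500 mg/kg and 109 ± 18.5 CPM in vehicle mice (slope -0.60, SE 0.22, adjusted p = 0.261). Of 10 further G protein and RGS genes, most of them typical of retina, taste or blood cells, 2 had enough counts to be tested and 0 were called. They were Gna15 and Rgs22, and Rgs22 had a slope of -1.20 (SE 0.55, edgeR unadjusted p = 0.0408, adjusted p = 0.357). Gnat3, Gngt1 and Rgs21 had no counts in any of the 18 mice (a count of 0 allows up to 3 counts per library).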

How the data were processed

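RNA-seq counts of 18 half-brains were analysed. Per the labels and the study's methods, the authors prepared stranded, ribosome-depleted total RNA libraries from 250 ng of RNA, sequenced 100 bp paired reads, mapped them to GRCm38 by STAR 2.7.5b and obtained gene counts by featureCounts. The strand setting of the counting was not given in the sources used here. The deposited values are raw counts per Entrez gene. The Background of the study calls the tissue hippocampal, and its methods and the labels half-brain, as taken here.

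Symbols and positions came from RefSeq (GRCm38.p6, 25275 genes with a symbol), and exon lengths, overlaps and shared 50-base stretches from GENCODE M21. In R 4.3.3, edgeR 4.0.16 was run with TMM normalization and filterByExpr by dose group (minimum count 10), leaving 15863 genes. Quasi-likelihood F tests used sex and dose divided by 500 mg/kg, dose groups, or a dose by sex term, with Benjamini-Hochberg adjustment at 0.05 over all genes. Standard errors were derived from the estimate and the F statistic. TMM-normalized CPM serve as levels, and p-values measure the spread between mice. Per the study's methods, cages were shared by mice of the same sex and dose. Differences between cages therefore cannot be told apart from differences between doses, and no fit held the cage. The part of the cage in the dose slopes and group comparisons was not tested. Duplicate libraries were looked for by chi-square over the 32 within-group pairs (9.02 to 76.9 per degree of freedom), and none was found. The dose slope and 500 mg/kg tests were also run on counts simulated from the dispersion trend of these data. Those counts held no libraries that stand apart, and the changes put in were larger than most member slopes. They therefore cannot show how the tests behave for small changes or with such libraries.

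Described in full were members at an unadjusted p under 0.05 on dose or at 500 mg/kg, the 2 members of each class with the highest mean CPM, and Gng10. Rgs9, Rgs14 and Rgs16 were chosen after their values were seen. The members, lists and tests were chosen with earlier results of these data known. Alternatives were DESeq2 1.42.0, limma-voom (limma 3.58.1), DESeq2 size factors, 2 other count filters, no sex covariate, dose as rank, 1 sex alone, no 500 mg/kg mice, the mouse tag number as a block, excitatory marker level as a covariate, and leaving out each mouse. Leaving out G4 and G9 together was chosen after seeing the data.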

Additional observations from a re-analysis of the deposited data

Results flagged for a closer look

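Among 76 sets of levels (19 described genes in 4 dose groups), 4 held a mouse far from the others of its group by Dixon's criterion. Chance alone marks about 1 group in 20, and 4 of 76 is near that rate. Rgs9 and Rgs16, flagged below, were chosen after their values were seen, so their flags cannot be set against it. Gnao1 had 436 CPM in mouse G49 of the 250 mg/kg group, against 596 to 628 CPM in the other mice of that group. Rgs7 had 49.6 CPM in mouse G40 of the 125 mg/kg group, against 27.3 to 32.8 CPM in the others. Rgs9 had 227 CPM in vehicle mouse G1, against 12.1 to 57.6 CPM in the other vehicle mice, and the striatal markers were also highest there among vehicle mice. Rgs16 had 120.3 CPM in mouse G45 of the 125 mg/kg group, against 9.85 to 25.2 CPM in the others. No explanation of these values was tested.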

How the results depend on the processing

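The count of members called on dose was 0 except with DESeq2 (1, Gng10) and, when each mouse was left out, 0 to 1. The count at an unadjusted p under 0.05 was 2 in females alone (5.28% of all genes), 0 without the 500 mg/kg mice (2.69%) and 0 with the tag number as a block (2.33%). When each mouse was left out it was 6 to 16, where 8.23 to 17.3% of all genes were under 0.05. With DESeq2, 4 members were called for any group difference and 1 at 500 mg/kg. The median member slope kept its sign throughout. Slopes of members that were not called changed sign for Gng2 in females alone (-0.074), with the tag block (-0.51), when single mice were left out (-0.052 to 0.139, negative without G1, G9 or G4) and without G4 and G9 (-0.098); with the tag block for Gnas (-0.092), Rgs8 (0.52) and Rgs9 (0.11); for Rgs16 with limma-voom (0.15), without the 500 mg/kg mice (0.58), with the tag block (0.36) and when single mice were left out (-0.51 to 0.48, positive without G45 or G4); and with the excitatory marker covariate for Gnao1 (0.088) and Rgs14 (0.026). The cause was not tested. All 250 mg/kg mice share 1 tag number, so tag and dose cannot be told apart there. The mouse numbers pair no samples, since each occurs once, and only some tag numbers occur in more than 1 group, as fitted in the block. Those tag numbers hold vehicle females and dosed males. The counts and signs with the tag block therefore cannot show whether slopes go with dose, tag or sex. With 4 or 5 mice a group, the scarcest genes (Gna14, Gng8, Gng5) rest on few counts.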
